A study of Mus musculus with 16 samples.

Results

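The mitosis and spindle genes described here are 34 protein-coding genes whose products build the mitotic spindle, hold chromosomes on it and divide the cell. They were taken by symbol from the deposited table of 21924 protein-coding genes. The rule uses no measured value, but the list was drawn up with earlier results of these data known. All 34 were in the table, and all 34 passed the filter on low values (2 or more libraries at a CPM of 1 or above), as did 14841 genes in all. CPM, is a gene's share of the reads on all genes of the table. By role, they comprise 4 genes for a proliferation marker and mitotic kinases, 6 of the spindle checkpoint, 4 of the chromosomal passenger complex, 7 of the centromere and kinetochore, 6 for spindle motors and assembly factors and 7 of the midzone and cytokinesis.

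RNA came from mouse germline stem (GS) cells, which are spermatogonial stem cells kept in long-term culture, established from testis at 20% oxygen. They were grown on a layer of mouse embryonic fibroblasts with the growth factors GDNF and FGF2. The 16 libraries formed 8 groups of 2. Wild type cells of strain DBA/2 were sequenced at 20% and at 1% oxygen. Cells on the background 129 x C57BL/6 mixed, here called the Hif1a line, were sequenced at both oxygen levels as Hif1a wild type and as cells labelled Hif1a KO. The latter received AxCANCre, an adenovirus that carries Cre, on the day of the hypoxia treatment. Cells on the background C57BL/6, here called the Top1mt line, were sequenced at 1% oxygen only, as Top1mt wild type and as cells labelled Top1mt KO. The series text gives 2 days at 1% oxygen, whereas the mark "6d" stands in the names of Hif1a line libraries at 1% and "2d" in Top1mt line names, with no meaning given. Numbers in the library names also separate the oxygen levels in both lines that have them, so oxygen and a possible sequencing set cannot be told apart. A separate mark "B" follows the replicate number in names of Hif1a line libraries at 1% only, again with no meaning given. Whether the fibroblasts had been stopped from dividing, whether wild type cells received a control virus and whether a line was 1 clone are not given in the sources used here. Nothing in the labels says that the 2 libraries of a group came from separate cultures, so the p-values below measure only the spread between these libraries.

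Entry into mitosis is driven by CDK1 with cyclin B, and the kinases PLK1, AURKA and AURKB then build the spindle and correct faulty attachments. Kinetochores of the NDC80 complex (NDC80, NUF2, SPC24, SPC25) bind microtubules on centromeres marked by CENPA, while BUB1, BUB1B, BUB3, MAD2L1 and TTK delay anaphase through CDC20 until every chromosome is attached. The passenger complex (AURKB, INCENP, survivin from Birc5, borealin from Cdca8) moves from the centromere to the midzone, where PRC1, KIF23, RACGAP1, ECT2 and anillin set up the cleavage furrow. Transcripts of most of these genes accumulate from S phase to mitosis and are scarce in resting cells. Spermatogonial stem cells self-renew by mitosis, and GS cells are expanded by the same route.

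Genes of this kind commonly carry CCAAT boxes, which bind NF-Y, and TTTGAA elements, which bind the MuvB complexes that switch cell cycle genes on or off. RefSeq promoter windows (build GRCm38.p6) were matched by symbol for 29 of the 34 genes, in 32 windows. In the 100 bases before the start, CCAAT or its reverse complement ATTGG was present in 21 of the 32 windows (65.6%), against 20.5% of the 20150 windows of all matched genes. In the same bases, TTTGAA or its reverse complement TTCAAA was present in 6 windows (18.8%), against 4.35% of all windows. Over 250 bases, the shares were 75% against 35.0% for CCAAT and 31.2% against 13.8% for TTTGAA. Both strands were read and the motifs were counted separately, so a base could count for both. The 100 bases before the RefSeq start are shown 5′ to 3′ on the gene's strand for 6 of the 10 genes with at least 2 CCAAT boxes there to show how the motifs are placed in genes whose roles run from mitotic entry to the kinetochore. Capitals mark the motifs.
Cdk1: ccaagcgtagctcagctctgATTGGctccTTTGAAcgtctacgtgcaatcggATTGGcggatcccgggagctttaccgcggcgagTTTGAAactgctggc
Cdc20: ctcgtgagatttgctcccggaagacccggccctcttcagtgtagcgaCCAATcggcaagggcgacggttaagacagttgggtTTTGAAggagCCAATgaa
Aurka: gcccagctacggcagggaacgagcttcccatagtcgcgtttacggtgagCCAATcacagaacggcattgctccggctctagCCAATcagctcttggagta
Ttk: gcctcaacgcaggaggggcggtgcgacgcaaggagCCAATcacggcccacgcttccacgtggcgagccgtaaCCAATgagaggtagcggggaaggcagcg
Spc25: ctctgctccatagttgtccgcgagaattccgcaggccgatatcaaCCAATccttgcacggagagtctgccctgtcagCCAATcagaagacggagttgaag
Bub1: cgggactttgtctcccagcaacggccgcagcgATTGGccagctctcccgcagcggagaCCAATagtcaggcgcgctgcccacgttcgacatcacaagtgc

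These stretches lie at chr10:69352913-69353012 on the minus strand (Cdk1), chr4:118437344-118437443 on the minus strand (Cdc20), chr2:172370571-172370670 on the minus strand (Aurka), chr9:83834589-83834688 on the plus strand (Ttk), chr2:69206214-69206313 on the minus strand (Spc25) and chr2:127831860-127831959 on the minus strand (Bub1). In Cdk1 the 4 motifs began 80, 71, 48 and 15 bases before the start. In Aurka, Ttk, Spc25 and Bub1 the pair of boxes began between 68 and 19 bases before it. A match of letters is a description and not a measured binding site.

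Reads per library, recovered from the steps of the CPM values, ran from 11942104 to 25659895, so 1 read stood for 0.0390 to 0.0837 CPM. The lowest value of any of the 34 genes was 7.405 CPM (Spc24), and every value rested on at least 135 reads. Hif1a transcript was not lower in the libraries labelled Hif1a KO: at 1% oxygen it stood at 618 and 593 CPM in them against 251 and 251 CPM in the wild type, and at 20% at 139 and 142 against 116 and 118 CPM. The label therefore has no check at the level of this transcript, and whether the deletion leaves a transcript that is still counted was not tested. Top1mt stood at 9.99 and 10.96 CPM in the libraries labelled Top1mt KO and at 32.8 and 34.8 CPM in their wild type. Germ cell markers fitted the label: Ddx4 ranged from 245 to 702 CPM and Dazl from 387 to 1392 CPM over the libraries. Summed levels of 12 testis somatic markers lay between 54.2 and 110 CPM and of 8 leukocyte markers between 14.7 and 46.3 CPM, with Cyp17a1 at 0 in 13 libraries, Insl3 and Hsd3b1 at 0 in 8 each, Tyrobp at 0 in 5 and Adgre1 at 0 in 1. Others were present at low levels in every library, such as Wt1 at 8.59 to 29.3 CPM, Sox9 at 6.70 to 19.9 CPM, Clu at 4.80 to 41.5 CPM and Lyz2 at 2.59 to 21.6 CPM. The testis somatic sum was highest in cells labelled KO at 1% oxygen, at 98.9 ± 6.10 CPM (SD, n = 2) in the Hif1a line and 107 ± 4.02 CPM in the Top1mt line, against means of 54.5 to 73.5 CPM in the other groups. Of the 12 testis somatic markers 7 were tested. In cells labelled Top1mt KO, 5 were higher than in their wild type and 1 lower, against 25.2% and 33.2% of all genes. Clu, Sox9 and Inha were among the higher (log2 differences of 0.56, 0.83 and 0.96), and Star was lower (-0.35). At 1% oxygen 4 rose and 2 fell in cells labelled Hif1a KO, against 25.2% and 54.7% of all genes. Clu and Inha were among those that rose (1.36 and 1.66), and Wt1 (-1.39) and Gata4 (-0.70) fell. The part of these markers in the results below was not tested.

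Per kilobase of exon (union of annotated exons, averaged over the 8 groups), Cdc20 was highest at 67.6 CPM per kb, followed by Bub1b at 45.8, Incenp at 42.4 and Kif20a at 41.7 CPM per kb. Nuf2 at 5.96, Spc24 at 6.20 and Hmmr at 7.69 CPM per kb were the lowest, so 2 subunits of the NDC80 complex were among the lowest on this measure. The union counts every annotated exon (6341 bases for Nuf2, 1868 for Cdc20). This order therefore depends on annotated length as well as on transcript level. Across the 8 groups, 31 of the 34 genes had their lowest mean in the cells labelled Hif1a KO at 1% oxygen, and Cenpe, Cenpf and Hmmr had theirs in the cells labelled Top1mt KO. Their highest means were more scattered: 12 genes peaked in DBA/2 cells at 1%, 10 in Top1mt wild type, 6 in Hif1a wild type at 20%, 4 in DBA/2 at 20% and 2 in Hif1a wild type at 1%.

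**Figure D1:**
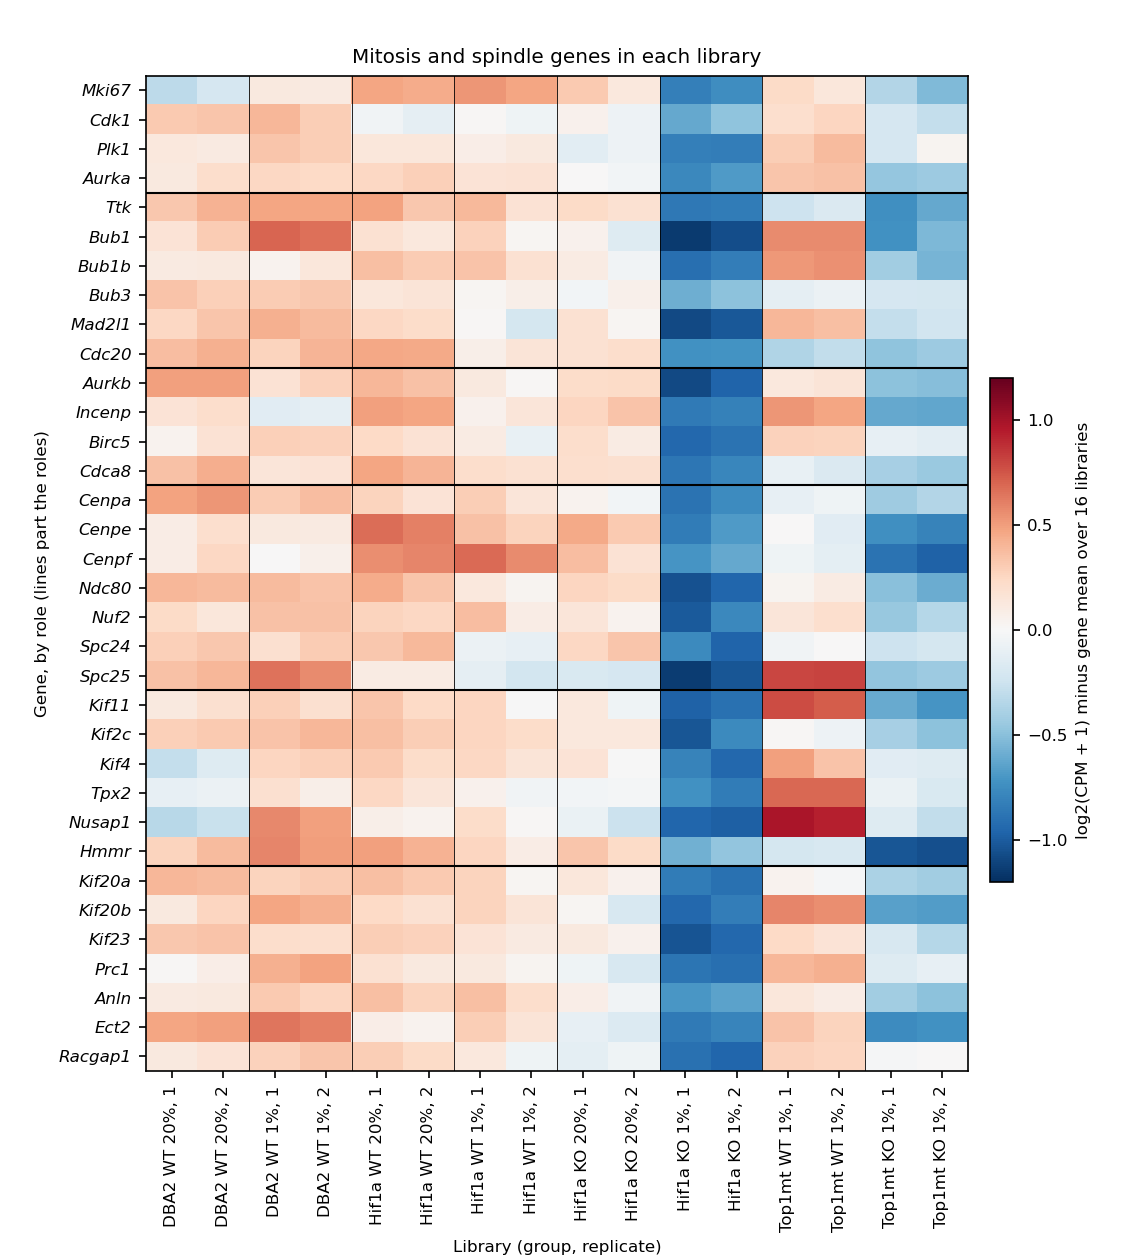
Level of each of the 34 genes (rows, by role) in each of the 16 libraries (columns, by group and replicate), as log2(CPM + 1) minus the gene's mean over the libraries. The 2 libraries labelled Hif1a KO at 1% oxygen are low for all rows, and the 2 labelled Top1mt KO are low for most.

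Summed over the 34 genes, the mean level was 4159 ± 121 CPM (SD, n = 2 here and below) in DBA/2 cells at 20% and 4360.1 ± 10.3 CPM at 1%. Hif1a wild type cells had 4574 ± 97.0 CPM at 20% and 4228 ± 220.2 CPM at 1%. In cells labelled Hif1a KO it was 3900.4 ± 174 CPM at 20% and 2027 ± 63.2 CPM at 1%. Wild type cells of the Top1mt line had 4275 ± 60.6 CPM and those labelled KO 2612 ± 44.7 CPM. Thus 6 of the 8 groups lay within a narrow band, and the 2 knockout-labelled groups at 1% oxygen lay far below it. Summed germ cell identity genes (16 genes, among them Ddx4, Dazl and Piwil2) were also lowest in those groups, at 1854 ± 81.2 and 2680 ± 26.0 CPM, against 3529 to 4992 CPM in the others. Summed feeder fibroblast markers (24 genes, among them Col1a1, Col3a1 and Fn1) were highest there, at 69522 ± 1334 and 49639 ± 789 CPM, against 8195 to 36409 CPM in the others. In such bulk samples, fewer dividing germ cells and less of these transcripts per cell cannot be told apart.

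**Figure D2:**
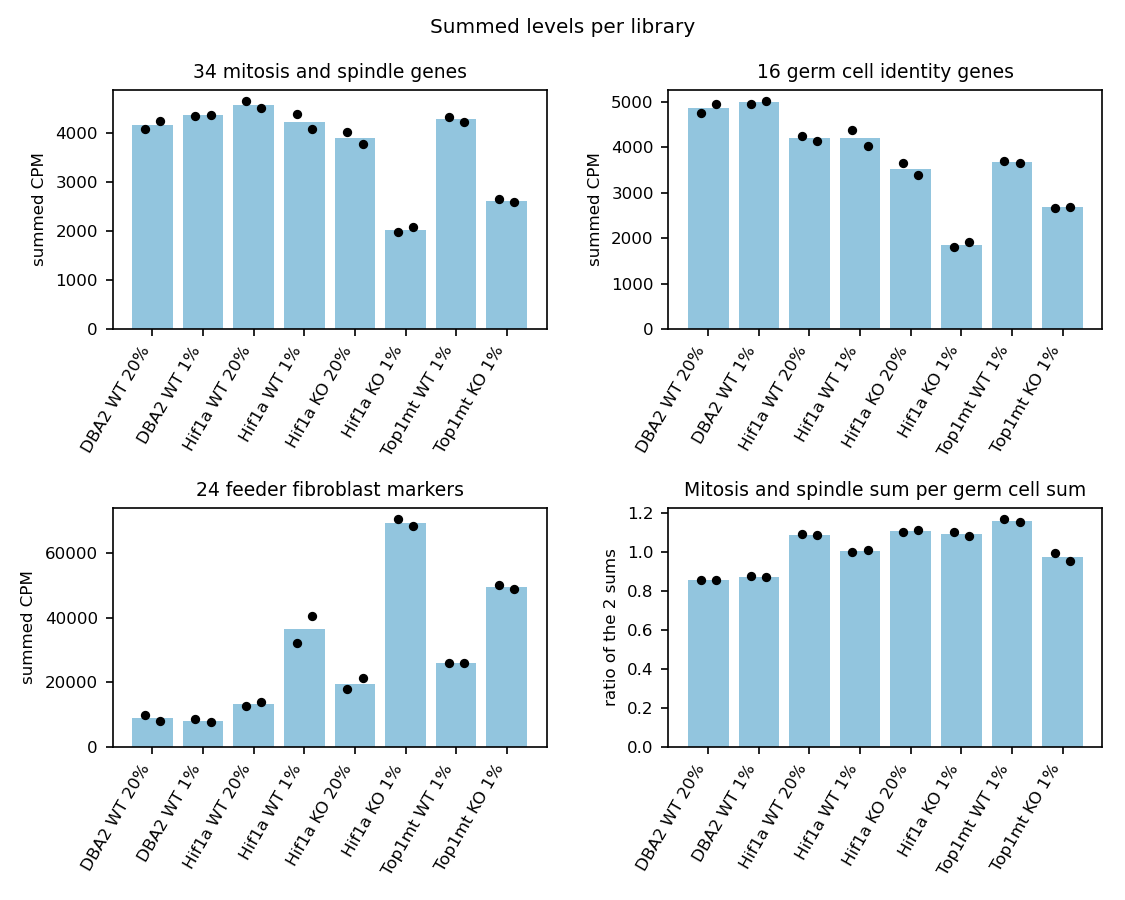
Summed CPM of the 34 mitosis and spindle genes, of 16 germ cell identity genes and of 24 feeder fibroblast markers, and the ratio of the first sum to the second, by group (bars, means of 2 libraries; points, libraries). The mitosis sum and the germ cell sum are both lowest in cells labelled Hif1a KO at 1% oxygen, while their ratio stays between 0.855 and 1.161 in all 8 groups.

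The first comparison asked how 1% oxygen changed these genes in DBA/2 wild type cells. The genes split: 4 of the 6 spindle motor and assembly genes, 5 of the 7 midzone genes and 2 of the 4 marker and kinase genes rose at 1% oxygen, and 3 of the 4 passenger complex genes fell. Of the 34, 14 rose and 5 fell at an adjusted p of 0.05 (limma on log2(CPM + 1), adjusted over all genes tested), against 31.8% of all genes that rose and 25.5% that fell. The median difference was 0.10 on the log2 scale for the 34 genes and 0.04 for all genes, so the group as a whole barely left the background, and the members themselves spread from -0.31 to 0.84. Both libraries at 1% lay above both at 20% for 20 of the 34 genes and below them for 7, against 44.8% and 36.5% of all genes.

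Nusap1 (chr2:119618298-119651244), which codes for a microtubule-bundling protein of the spindle, stood at 35.5 and 37.2 CPM at 20% and at 67.6 and 63.8 CPM at 1% oxygen. The libraries did not overlap, and the log2 difference was 0.84 (SE 0.075, adjusted p = 1.7e-08, limma). Kif4 (chrX:100625737-100727214), a motor that shapes chromosome arms and the midzone, went from 43.8 and 48.0 to 64.4 and 65.6 CPM, a log2 difference of 0.49. The median of all tested genes on chromosome X was 0.26 in the same comparison, and its part in the rise of Kif4 was not tested. Bub1 (chr2:127801122-127831865), the checkpoint kinase of the kinetochore, went from 159 and 175 to 231 and 224 CPM (0.45 on the log2 scale). Prc1, which bundles antiparallel microtubules in the midzone, rose by 0.41, and Mki67, the gene of the proliferation marker Ki-67 (chr7:135689784-135716361), rose by 0.37 from 239 and 259 to 323 and 321 CPM.

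The chromosomal passenger complex moved the other way. Incenp, its scaffold (chr19:9872296-9899551), stood at 197 and 203 CPM at 20% and at 159 and 162 CPM at 1%, a log2 difference of -0.31 (SE 0.047, adjusted p = 1.38e-05, limma). Its kinase gene Aurkb fell by 0.27, from 97.5 and 97.8 to 78.2 and 83.6 CPM, and Cdca8 fell by 0.24. For these 3 genes both libraries at 1% lay below both at 20%. Birc5, the remaining subunit gene, stood at 45.8 and 50.3 CPM at 20% and at 54.2 and 54.1 CPM at 1%. Its rise of 0.17 just passed the threshold (adjusted p = 0.0424, limma) and was lost under edgeR, DESeq2 and 2 other scalings.

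Of the 7 centromere and kinetochore genes 1 rose and 1 fell, against 31.8% and 25.5% of all genes. Spc25 (chr2:69193895-69206194), of the NDC80 complex, rose by 0.23, from 65.6 and 67.9 to 81.0 and 76.5 CPM. Its partners Ndc80, Nuf2 and Spc24 did not pass the test: Ndc80 stood at 82.04 and 80.9 CPM at 20% and at 81.3 and 78.9 CPM at 1%. Cenpa, the centromeric histone, fell by 0.17 (adjusted p = 0.0197, limma), a call that was lost without DBA/2 replicate 2 at 20% or replicate 1 at 1%. Kif23, a subunit of centralspindlin, fell by 0.13, from 139.8 and 142 to 129 and 128 CPM, against 5 of the 7 midzone and cytokinesis genes that rose. Its adjusted p of 0.0473 (limma) was lost when any 1 of the 4 libraries was left out. The count of risen genes was 8 with DESeq2, and it was also 8 without DBA/2 replicate 1 at 20% or replicate 1 at 1% oxygen. The count of fallen genes was 3 without replicate 2 at 20% or without replicate 1 at 1%. Of 24 feeder markers 5 rose and 12 fell in this line, with a sum of 7942 to 9936 CPM at 20% and 7765 to 8625 CPM at 1%.

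In the Hif1a wild type, the same comparison gave mainly small falls. Of the 34 genes 15 fell and 1 rose, against 34.6% of all genes that fell and 18.4% that rose. The median was -0.11 against -0.09 for all genes, again close to the background. The libraries at 1% lay above those at 20% for 2 genes and below them for 19, against 26.6% and 47.4% of all genes. All 4 passenger complex genes fell. Incenp went from 247 and 244 CPM at 20% to 181 and 194 CPM at 1% (log2 difference -0.39, SE 0.047, adjusted p = 1.22e-06, limma). Aurkb went from 91.3 and 88.5 to 75.1 and 69.7 CPM (-0.31), and the differences of Cdca8 and Birc5 were -0.25 and -0.20. Birc5 kept its call in neither edgeR nor DESeq2, and it lost it without replicate 1 at 20% or replicate 2 at 1%.

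In the checkpoint, Cdc20 (chr4:118432901-118437352), the activator of the anaphase-promoting complex, fell by 0.34, from 168 and 167 to 128 and 135 CPM. Mad2l1, which holds CDC20 inactive, fell by 0.33, from 119 and 116 to 101 and 85.9 CPM. In the NDC80 complex, Spc24 went from 19.5 and 20.5 to 14.6 and 14.4 CPM (-0.44) and Ndc80 from 85.0 and 78.6 to 68.1 and 63.6 CPM (-0.31), with no overlap between oxygen levels in either. Hmmr, a spindle pole protein gene, fell by 0.28, and Kif23 by 0.15, and both calls were lost with DESeq2 and without Hif1a wild type replicate 2 at 1%. Mki67 did not pass the test: it stood at 412 and 405 CPM at 20% and at 429 and 413 CPM at 1%, a log2 difference of 0.04. Ect2 (chr3:27097222-27153878), the exchange factor that activates RhoA at the furrow, was the only gene to rise, from 107 and 104 to 124 and 113 CPM (0.17, adjusted p = 0.0125, limma). That call was lost without Hif1a wild type replicate 2 at 20%, without replicate 1 at 1%, and when only the compared groups were fitted. The count of fallen genes was 9 without Hif1a wild type replicate 2 at 1% oxygen and 8 with DESeq2. Here feeder markers rose with low oxygen: 20 of 24 rose, their sum going from 12798 to 13806 CPM at 20% to 32335 to 40482 CPM at 1%, and their part in these small falls was not tested. Rescaled to the summed germ cell genes, 16 of the 34 genes fell and 1 rose, against 31.6% and 16.1% of all genes. Under median-of-ratios scaling 11 fell and 1 rose, against 24.9% and 24.5% of all genes, and 49.7% of all called genes were higher.

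The oxygen responses of both wild type lines were then compared directly (Hif1a wild type response minus DBA/2 response). Of the 34 genes 17 had a lower response in the Hif1a line and 0 a higher one, against 30.9% and 15.1% of all genes (limma). At an unadjusted p of 0.05, 21 were lower and 0 higher, but the share of all genes at that threshold was not computed. The median difference of response was -0.24 for the 34 genes and -0.13 for all genes. The largest differences of response were those of Nusap1 (-0.77, SE 0.106, adjusted p = 9.46e-06, limma), Kif4 (-0.56) and Hmmr (-0.50), and 4 of the 6 spindle motor and assembly genes were called. Mki67 differed by -0.33. Its call was lost with edgeR, DESeq2, median-of-ratios scaling and chromosome centring. The count of lower genes fell to 10, 9, 10 and 10 under those settings, with 2 called higher in each. Of all genes 20.6%, 15.6%, 19.9% and 20.6% were lower there, and 21.9%, 18.1%, 21.1% and 21% higher. Before low oxygen, the lines already differed: at 20% oxygen 9 of the 34 genes were higher and 5 lower in the Hif1a wild type than in DBA/2 cells, against 26.4% and 22.6% of all genes. Both libraries lay above those of DBA/2 for 17 genes and below them for 8, against 42.2% and 35.7% of all genes. Mki67 was higher by 0.71, Cenpe, the kinetochore motor, by 0.49 and Cenpf by 0.40, whereas Ect2 was lower by 0.42 and Cdk1 by 0.40. Strain and line differ together there and cannot be told apart.

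In the cells labelled Hif1a KO, every one of the 34 genes fell at 1% oxygen. That is 34 of 34 against 54.7% of all genes, and 0 rose against 25.2% of all genes. The median was -0.94 against -0.29 for all genes, the range ran from -1.25 to -0.54, and 13 genes fell at least 2-fold. For all 34 both libraries at 1% lay below both at 20%, as they did for 60.5% of all genes. By role, the median fall was 1.10 in the passenger complex, 0.99 in the checkpoint and in the centromere and kinetochore genes, 0.88 in the motors and assembly factors, 0.81 in the midzone genes and 0.72 in the marker and kinases.

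Aurkb fell from 80.6 and 81.1 CPM at 20% to 32.1 and 35.0 CPM at 1%, a log2 difference of -1.25 (SE 0.057, adjusted p = 1.83e-13, limma). Its scaffold partner Incenp fell from 210.1 and 222 to 97.0 and 99.7 CPM (-1.13), the smallest adjusted p of the 34 genes (6.28e-14, limma). Ndc80 (chr17:71496100-71526857), the microtubule-binding subunit that names its complex, fell from 74.6 and 73.1 to 29.6 and 31.7 CPM (-1.24). Each of these 3 fell more than 2-fold. Cdc20 fell from 138 and 141 to 72.9 and 73.3 CPM (-0.92). Kif2c (chr4:117159639-117182639), a kinesin that takes microtubules apart at the centromere, fell from 102 and 102 to 45.4 and 54.5 CPM (-1.03). Kif23 (chr9:61915905-61946774) fell from 121 and 115 to 53.6 and 57.5 CPM (-1.07). The genes that fell thus included checkpoint, centromere and cleavage furrow members. Mki67 fell from 370.2 and 326 to 168 and 176 CPM (-1.01), and Bub1 from 147 and 127 to 63.2 and 67.1 CPM (-1.06). The smallest falls were those of Cdk1, the kinase of mitotic entry, from 60.04 and 55.7 to 37.6 and 41.2 CPM (-0.54), and of Bub3, a checkpoint adaptor, from 126 and 134 to 85.2 and 91.0 CPM (-0.56). Median-of-ratios scaling moves the median of all genes from -0.29 to 0.02. The 34 genes were still all called lower under it, against 35.4% of all genes, with a median of -0.59. On that scaling 53.0% of all called genes were higher, against 31.6% on CPM.

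**Figure D3:**
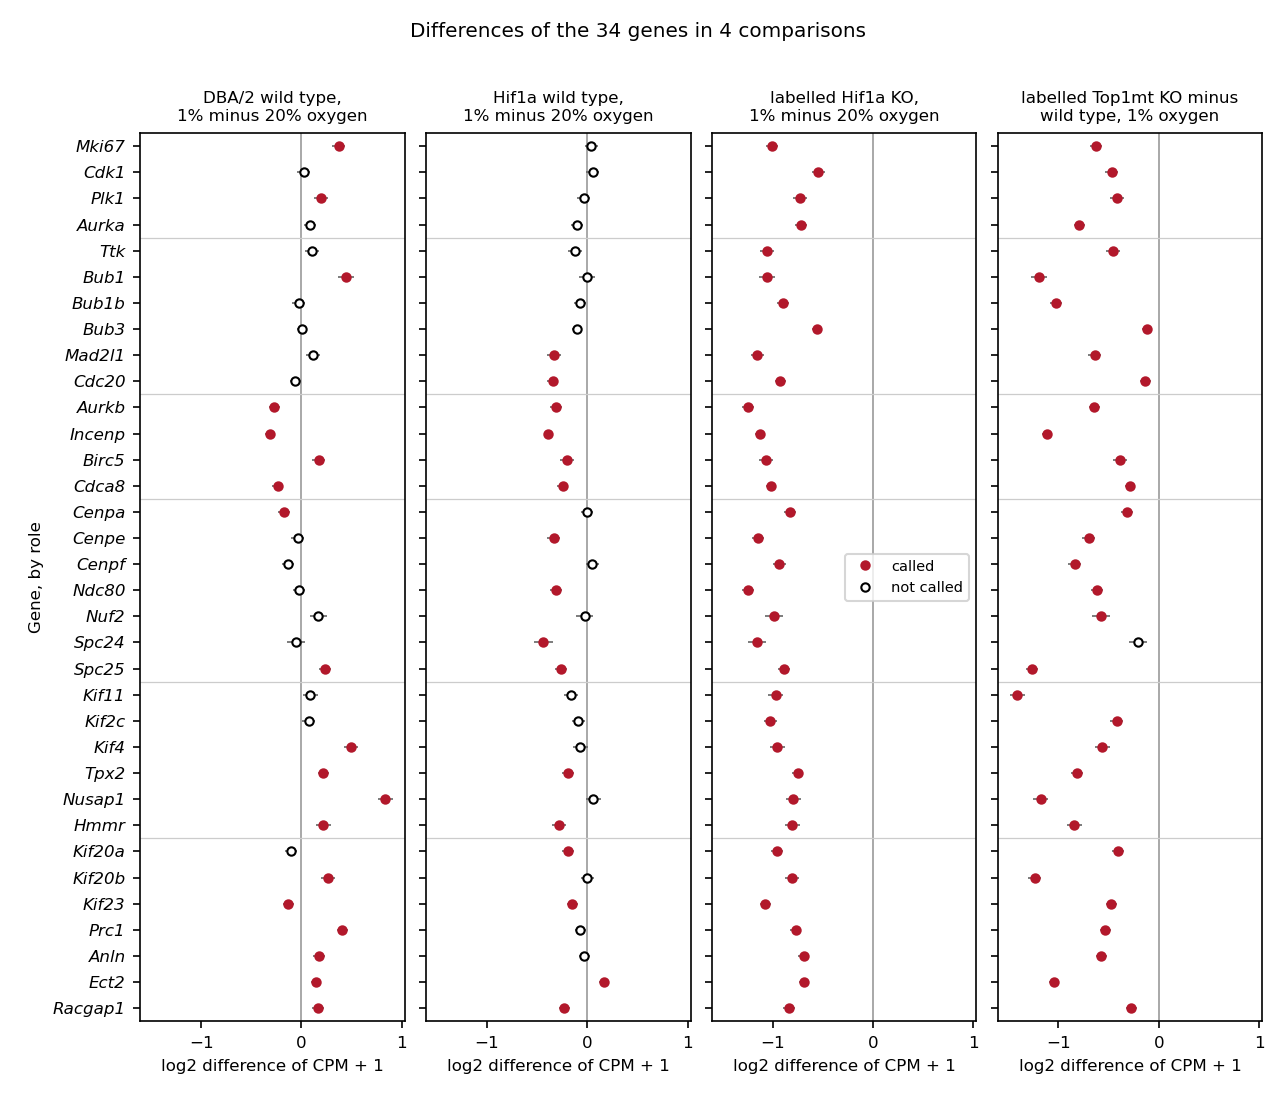
Log2 difference of CPM + 1 for each of the 34 genes (rows, by role) in 4 comparisons (panels); points are fitted differences, bars 1 SE, filled points called at an adjusted p of 0.05. Points lie on both sides of 0 in DBA/2 cells, mostly just below it in the Hif1a wild type, and all below it in cells labelled Hif1a KO and in the Top1mt comparison.

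Germ cell identity genes fell and feeder markers rose in the same libraries. All 16 germ cell genes fell (median -0.99), among them Piwil2, Tdrd1 and Dnd1, and all 24 feeder markers rose (median 1.51), with Col3a1 going from a mean of 1306 to 10144 CPM. The summed mitosis genes at 1% were 0.520 times those at 20%, the summed germ cell genes 0.525 times and the summed feeder markers 3.54 times. The ratio of mitosis to germ cell sums was thus 0.990 times its value at 20%, going from 1.10 and 1.11 to 1.10 and 1.08. When each library was rescaled to the same germ cell sum, 7 of the 34 genes were called higher and 9 lower, with a median of -0.02, against 69.1% of all genes higher and 8.28% lower. The genes still lower per germ cell sum were Aurkb (-0.34), Ndc80 (-0.34), Spc24 (-0.31), Mad2l1 (-0.24), Cenpe (-0.22), Incenp (-0.21), Birc5 (-0.17), Kif23 (-0.16) and Ttk (-0.15). Those higher were Cdk1 and Bub3 (0.37 each), Ect2 and Anln (0.23 each), Aurka (0.19), Tpx2 (0.17) and Prc1 (0.14). Except for Ttk, each of the 9 lower genes had also fallen in the wild type of the same line. Scaling to germ cells moved the median of all genes to 0.54, and 89.3% of all genes called were then higher.

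Cells labelled Hif1a KO were also compared with the wild type at each oxygen level. At 20% oxygen, 22 of the 34 genes were lower and 0 higher, against 9.55% and 12.9% of all genes, but the differences were small, with a median of -0.22 (all genes -0.03). Both libraries labelled KO lay below both wild type libraries for 31 genes, against 35.7% of all genes. All 7 midzone and cytokinesis genes were lower. Racgap1, a centralspindlin subunit, stood at 85.2 and 89.2 CPM against 114 and 109 CPM (log2 difference -0.35, SE 0.057, adjusted p = 0.000237, limma), and Bub1b, of the checkpoint complex, at 202 and 182 against 242 and 232 CPM (-0.31). Mki67 was lower by 0.23, a call lost without wild type replicate 1 or labelled KO replicate 2 at 20%. Cdk1 gave 60.04 and 55.7 CPM against 56.3 and 53.9 CPM and did not pass the test. The count of lower genes was 9 without Hif1a wild type replicate 1 at 20% and 10 without labelled KO replicate 2 at 20%, and 0 when libraries were rescaled to germ cell genes, where Cdk1 and Birc5 were higher, against 0.337% of all genes lower and 43.5% higher. In this comparison 12 of 16 germ cell genes were lower and 21 of 24 feeder markers higher.

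At 1% oxygen all 34 genes were lower in cells labelled Hif1a KO than in the wild type, against 49.1% of all genes, and 0 were higher against 28.3%. The median was -1.03 (all genes -0.21), and 19 genes were at least 2-fold lower. The libraries did not overlap for any of the 34, all lower, against 55.4% of all genes. Mki67 stood at 168 and 176 CPM against 429 and 413 CPM (-1.28), Cenpf at 195 and 209 against 512 and 474 CPM (-1.28), and Bub1 at 63.2 and 67.1 against 172 and 144 CPM (-1.26). Kif2c and Kif23 differed by -1.14 and -1.13, and Incenp by -0.92. Cdk1, at 37.6 and 41.2 against 58.6 and 55.9 CPM, differed least (-0.53). Rescaled to the germ cell sum, 19 genes were instead higher and 0 lower, with a median of 0.14, against 84.5% of all genes higher and 0.532% lower. Cdk1 was then higher by 0.63 and Incenp by 0.25, while Mki67 (-0.10), Cenpf (-0.10) and Bub1 (-0.09) did not pass the test. The germ cell sum of the wild type was 4213 CPM at 1% and 4198 CPM at 20%, and that of the cells labelled KO was 1854 and 3529 CPM. Scaling to germ cells moved the median of all genes to 0.85 here, and 99.4% of all genes called were then higher.

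The oxygen response itself differed between labelled KO and wild type for all 34 genes. Each had a lower response in cells labelled Hif1a KO (34 of 34 against 39.0% of all genes, and 0 higher against 19%), with a median of -0.81 against -0.17 for all genes (limma, interaction). The differences were largest for Bub1 (-1.05, SE 0.111, adjusted p = 3.06e-07, limma) and Mki67 (-1.05), and they were -0.94 for Kif2c, -0.93 for Kif23, -0.74 for Incenp and -0.46 for Bub3. Rescaled to the germ cell sum, 10 genes had a higher response and 0 a lower one, against 75.4% and 0.431% of all genes. Bub3 was among the 10 at 0.47, and Incenp went to 0.19. With DESeq2 32 genes were called lower, without Bub3, against 17% of all genes. The count was 34 whichever single library of the 8 was left out.

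**Figure D4:**
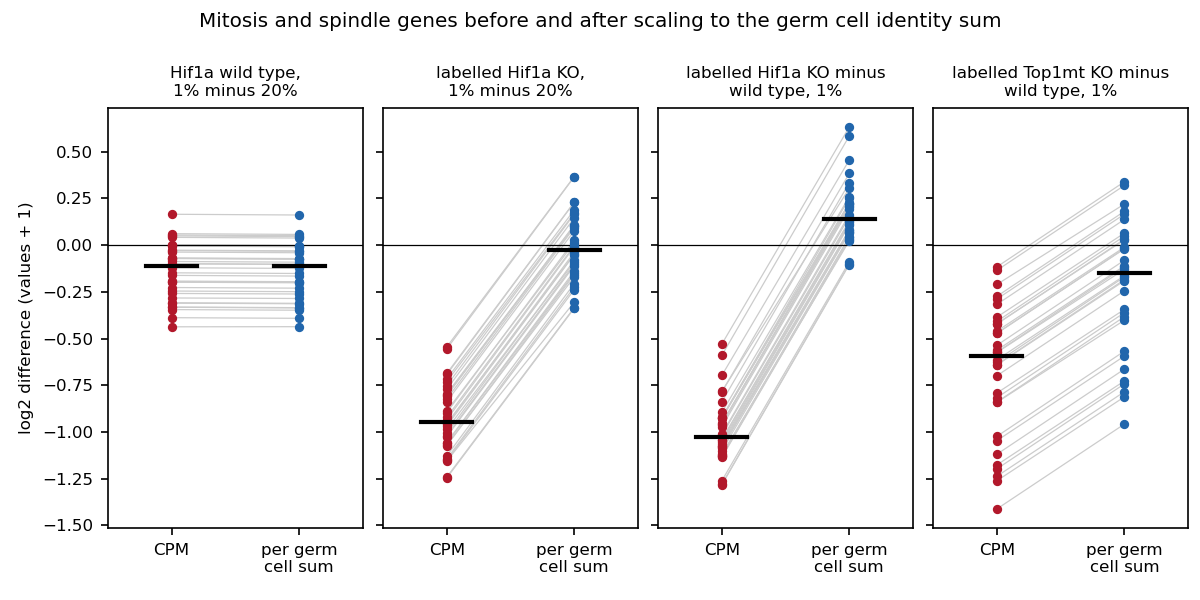
Log2 differences of the 34 genes in 4 comparisons (panels), on CPM (left in each panel) and after each library was rescaled to the same germ cell identity sum (right); lines join a gene and black bars are medians. The points barely move in the Hif1a wild type, move up to around 0 in cells labelled Hif1a KO, and keep a lower tail in the Top1mt comparison.

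In the Top1mt line, cells labelled KO had lower levels of nearly all these genes at 1% oxygen. Of the 34, 33 were lower and 0 higher, against 33.2% and 25.2% of all genes, with a median of -0.59 (all genes -0.04). For all 34 both libraries labelled KO lay below both of the wild type, against 43.8% of all genes. The remaining gene, Spc24, stood at 12.8 and 13.2 against 14.9 and 15.5 CPM (-0.21, adjusted p = 0.0558, limma). The differences ranged from -1.41 to -0.12. Kif11 (chr19:37376403-37421859), the motor that pushes spindle poles apart, stood at 81.4 and 75.5 CPM against 214 and 206 CPM (-1.41, SE 0.074, adjusted p = 1.13e-11, limma). Spc25 stood at 36.7 and 37.6 against 90.2 and 90.8 CPM (-1.26), and Kif20b, a kinesin of late cytokinesis, at 56.2 and 55.2 against 134 and 132 CPM (-1.24). In none of these did the groups overlap. Bub1 was at 85.1 and 97.1 against 210.0 and 209.7 CPM (-1.198), Nusap1 at 40.4 and 36.6 against 89.7 and 86.7 CPM (-1.18), and Incenp at 114 and 113 against 253 and 243 CPM (-1.12). Mki67 was at 232 and 206 against 349 and 328 CPM (-0.63), and Kif23 at 96.9 and 87.5 against 131 and 125 CPM (-0.47). The smallest differences were those of Racgap1 (-0.27), Cdc20 (-0.13) and Bub3 (-0.12). The calls of Cdc20 (adjusted p = 0.0348) and Bub3 (adjusted p = 0.0483, limma) were lost with edgeR, DESeq2 and median-of-ratios scaling.

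Chromosome of origin went with the size of these differences. The 9 genes on chromosomes 2 and 19 (Aurka, Bub1, Bub1b, Spc25, Tpx2 and Nusap1 on chromosome 2; Incenp, Kif11 and Kif20b on chromosome 19) had a median of -1.18 (from -1.41 to -0.79), and 7 of them were at least 2-fold lower. The other 25 had a median of -0.47 (from -1.05 to -0.12), and only Ect2 on chromosome 3, at 59.5 and 60.9 against 129 and 122 CPM, was at least 2-fold lower. The medians over all tested genes of chromosomes 2 and 19 were shifted in the same direction. They were -0.46 and -0.47, whereas those of the other 18 chromosomes lay between -0.13 and 0.11. Set against the mean over all 16 libraries, the shift lay mostly in the Top1mt wild type, whose 2 libraries had median deviations of 0.32 on chromosome 2 and 0.38 on chromosome 19, against -0.11 and -0.05 in those labelled KO. Chromosome 6 was raised in both, by 0.28 to 0.29 in the wild type and 0.18 to 0.19 in those labelled KO. With each library centred per chromosome, 32 of the 34 genes were lower and 0 higher, against 28.1% and 27.8% of all genes. Their median was -0.54. Ect2 was then the lowest (-1.07), Kif11 was at -0.98 and Bub1 at -0.77, and Cdc20 joined Spc24 among the genes that did not pass the test. Whether the lines differ in copies of these chromosomes was not tested.

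**Figure D5:**
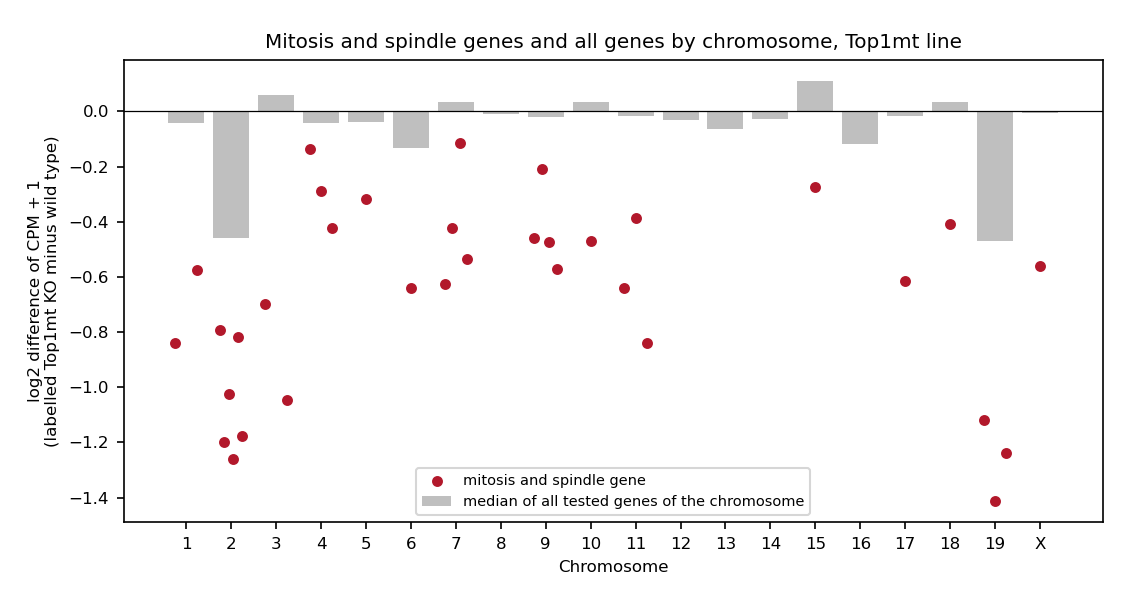
Log2 difference of CPM + 1, labelled Top1mt KO minus wild type at 1% oxygen, for each of the 34 genes (points) and the median of all tested genes of each chromosome (grey bars), by chromosome. Chromosomes 2 and 19 have the lowest bars (-0.46 and -0.47), and 9 of the 34 points lie on them.

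Germ cell and feeder markers moved in the Top1mt comparison as well: 14 of 16 germ cell genes were lower (median -0.42) and all 24 feeder markers higher (median 0.90). The summed mitosis genes were 0.611 times those of the wild type, the summed germ cell genes 0.728 times and the summed feeder markers 1.91 times. The ratio of mitosis to germ cell sums was 1.17 and 1.15 in the wild type and 0.993 and 0.956 in cells labelled KO, that is 0.840 times as high and without overlap. Neither sum was centred per chromosome. After rescaling to the germ cell sum 18 of the 34 genes were still lower and 5 higher, with a median of -0.15, against 7.31% of all genes lower and 64.9% higher (median 0.37). All 9 genes on chromosomes 2 and 19 were among the 18, led by Kif11 (-0.96), Spc25 (-0.81) and Kif20b (-0.79). Ect2 (-0.59), Hmmr (-0.40), Cenpf (-0.38), Cenpe (-0.24) and Mki67 (-0.17) were also among them. The 5 that were higher were Bub3 (0.34), Cdc20 (0.32), Racgap1 (0.18), Cdca8 (0.17) and Cenpa (0.14).

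Other genes of the cell division machinery, from lists chosen by function, are given against the same background. In cells labelled Hif1a KO at 1% against 20% oxygen, 32 of 33 further kinetochore and centromere genes fell (median -1.01, against 54.7% of all genes that fell and an all-gene median of -0.29), with Hjurp, the chaperone that loads CENPA, at -1.18. The exception was Cenpb, which binds satellite DNA and rose by 1.04; it was singled out after its value was seen. All 17 condensin, separase and cohesion genes fell (median -0.97), among them Ncapd2 (-1.24) and Espl1, which codes for separase (-1.18). All 31 other spindle, centrosome and cytokinesis genes fell (median -0.91), with the citron kinase gene Cit at -1.37. Of 25 regulators of mitotic entry and exit 20 fell and 0 rose (median -0.71), among them the cyclin genes Ccnf (-1.03) and Ccna2 (-1.07). Among 24 transcription factors of mitotic genes 20 fell, with Foxm1, an activator of G2 and M phase genes, at -1.30, and 2 rose, Rbl2 (1.14) and Mybl1 (0.77), which were likewise named after their values were seen. All 26 DNA replication genes of S phase fell too (median -1.08), led by Mcm5 (-1.37). The rises of Rbl2 and Mybl1 were not particular to cells labelled Hif1a KO. At 1% oxygen Rbl2 also rose in DBA/2 cells (0.61) and in the Hif1a wild type (0.80), and Mybl1 in DBA/2 cells (0.86).

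In the Top1mt comparison the same lists gave 27 of 33 kinetochore genes lower, 15 of 17 condensin and cohesion genes, 26 of 31 other spindle genes, 15 of 25 entry and exit regulators, 18 of 24 transcription factors and 23 of 26 S phase genes, against 33.2% of all genes lower and 25.2% higher. These counts were not centred per chromosome, and the shifts of chromosomes 2 and 19 apply to any list gene there. Called higher were Cenpb (0.71), Ncaph2 (0.13), Rbl2 (0.72) and E2f4 (0.32), named after their values were seen. List medians lay between -0.66 and -0.40. In DBA/2 cells, where 31.8% of all genes rose and 25.5% fell, 6 of 33 kinetochore genes rose and 9 fell, close to or under those shares. Of 25 entry and exit regulators 11 rose, with Ccna2 at 0.54, and 6 fell. S phase genes went down instead, with 14 of 26 lower and 4 higher (median -0.14), Pole, the catalytic subunit of a replicative polymerase, at -0.61. As a result the ratio of mitosis to S phase sums went from 0.897 and 0.906 at 20% to 1.04 and 1.03 at 1%, without overlap. In the Hif1a wild type the ratio went from 0.953 and 0.945 to 1.06 and 1.02, and 20 of 26 S phase genes fell (median -0.23), against 34.6% of all genes. In cells labelled Hif1a KO the ratio likewise went from 0.882 and 0.849 at 20% to 0.972 and 0.981 at 1%. At 1% oxygen it was 0.980 and 0.951 in the Top1mt wild type and lower, at 0.851 and 0.813, in cells labelled Top1mt KO. These ratios were not centred per chromosome either, and 9 of the mitosis and spindle genes lie on chromosomes 2 and 19.

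Over the 8 group means of log2(CPM + 1), the genes outside the 34 whose profile was most like the mean profile of the 34 were Sugp2 (Pearson r = 0.991), Gpat2, Raver2, Cdk12, Polr2b, Plb1, Zfp236, Cep83, Blm and Marf1 (r = 0.989). None of the 10 belongs to the lists above. Among the 34, Nuf2 (r = 0.993) and Aurka (r = 0.985) followed the mean profile most closely and Nusap1 (r = 0.753) least. These correlations are across 8 group means that share the low values of 2 groups, and they are given as a description.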

How the data were processed

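The authors deposited 1 table of CPM values for 21924 protein-coding genes in 16 libraries, made from stranded mRNA libraries of 200 ng total RNA, per the labels' protocols. The submitters' processing notes name cutadapt 1.16, STAR 2.6.0c, HTSeq 0.11.2, DESeq2 1.22.2 and mm10. The annotation and the strand setting of the counting are not given in the sources used here. Columns were matched to libraries by title or description, and groups came from the titles. All values (100%) were whole reads within 0.01, so depth was recovered. The 2 libraries of a group differed by a chi-square per gene of 1.79 to 7.60, so none was counted as a repeat.

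Testing covered the 14841 genes that reached a CPM of 1 in 2 or more libraries and used limma 3.58.1 (R 4.3.3) on log2(CPM + 1), with 1 mean per group, a trended prior and Benjamini-Hochberg adjustment over all 14841 genes, called at 0.05. Log2 differences understate the change of low genes. edgeR 4.0.16 and DESeq2 1.42.0 on recovered reads, other scalings, filters and pseudocounts, a replicate block and leaving out each library were alternatives. Centring per chromosome was added after seeing the data. The script was tested on simulated data. Gene positions are from GENCODE M21 (GRCm38), in which 21888 symbols matched once and 36 more often.

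The 34 genes and the other lists were chosen with earlier results of these data known. Per-library values were given for Mki67, for the gene with the smallest adjusted p of each role in any comparison within a line and for genes that moved against their role. Of other lists, up to 3 genes with the smallest adjusted p were eligible. Further genes of the 34 were named after their values were seen. The level of 1 leukocyte marker is not reported here.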

Additional observations from a re-analysis of the deposited data

Results flagged for a closer look

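Results are given here where the difference between 2 groups' responses to the same contrast itself passed the test (limma, interaction, adjusted over all genes tested). All 34 mitosis and spindle genes had a lower response to 1% oxygen in cells labelled Hif1a KO than in the wild type of the same line, against 39.0% of all genes. Scaled to the germ cell sum, 0 were lower and 10 higher, against 0.431% and 75.4% of all genes. Bub1 and Mki67 differed by -1.05 each, Kif2c by -0.94, Kif23 by -0.93, Incenp by -0.74 and Bub3 by -0.46. Germ cell identity genes (16 of 16) also had a lower response and feeder markers (19 of 24) a higher one, and their part in the difference was not tested.

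Of the 34 genes, 17 had a lower response in the Hif1a wild type than in DBA/2 cells, against 30.9% of all genes. With edgeR, DESeq2, median-of-ratios scaling and chromosome centring 9 or 10 were lower and 2 higher. The shares of all genes there were 15.6% to 20.6% lower and 18.1% to 21.9% higher. Nusap1 differed by -0.77, Kif4 by -0.56, Hmmr by -0.50 and Mki67 by -0.33, a call that was lost under those 4 settings. Feeder markers had a higher response in the Hif1a wild type for 19 of 24 genes, which was not tested as a cause. Groups of 2 libraries were too small to look for single libraries that stand apart.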

How the results depend on the processing

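Among the genes given a log2 difference on CPM in each comparison, 1067 values were recomputed: 981 kept direction and call, 72 kept direction but lost the call, 1 gained it (Cdk1 in labelled Hif1a KO against wild type at 20%, 0.32) and 13 changed sign. These 14 came from scaling to the germ cell sum, under which further genes of the 34 changed sign or gained a call, as the counts below show. The 13 were Cdk1 (0.37) and Bub3 (0.37) for oxygen in labelled Hif1a KO; Mki67 (0.016) for labelled KO against wild type at 20%; Kif2c (0.031), Cdk1 (0.63), Kif23 (0.043) and Incenp (0.25) for the same at 1%; Bub3 (0.34), Cdc20 (0.32), Spc24 (0.22) and Racgap1 (0.18) for Top1mt; and Bub3 (0.47) and Incenp (0.19) for the difference of oxygen responses. That scaling also gave 7 higher and 9 lower for oxygen in labelled Hif1a KO, against 69.1% and 8.28% of all genes. For labelled KO against wild type it gave 2 and 0 at 20% (all genes 43.5% and 0.337%) and 19 and 0 at 1% (84.5% and 0.532%). Top1mt gave 5 and 18 (64.9% and 7.31%), and the difference of responses 10 and 0 (75.4% and 0.431%). Hif1a wild type against DBA/2 at 20% gave 26 and 2 (46.6% and 9.07%). Scaling to the germ cell sum shifts all genes of a library together, and the cause of the germ cell shift was not tested.

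In DBA/2 cells DESeq2 called 8 higher, against 25.8% of all genes. In the Hif1a wild type DESeq2 called 8 lower (20.6% of all genes), and a fit of only the compared groups called 0 higher (15.7%). Between the oxygen responses of both wild type lines, 2 genes were called higher under median-of-ratios scaling, germ cell scaling, edgeR, DESeq2 and chromosome centring. The shares of all genes higher there were 13.6% to 21.9%. Lower were 10 under median-of-ratios, edgeR and centring and 9 under DESeq2, against 15.6% to 20.6% of all genes. The cause was not tested.

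Leaving out 1 library at a time gave 8 to 12 higher and 3 to 5 lower in DBA/2 cells, 0 to 1 higher and 9 to 17 lower in the Hif1a wild type, 9 to 21 lower for labelled KO against wild type at 20%, 31 to 32 lower for Top1mt, 0 to 2 higher and 13 to 21 lower for the difference between wild type responses (1 higher without DBA/2 replicate 1 at 20%, 2 without Hif1a wild type replicate 2 at 1%), and 7 to 9 higher and 4 to 5 lower between the lines at 20%. The lone library left in a group was assumed to vary like the others. The other counts of lower genes stayed at 34. Replicate numbers mark no shared source in the labels. Between compared groups, the differences of replicate 1 minus replicate 2 correlated by -0.08 to 0.15 over the 14841 genes. With a replicate block the counts were 14 higher and 5 lower in DBA/2 cells, 1 and 16 in the Hif1a wild type, 24 lower for labelled KO against wild type at 20%, 33 lower for Top1mt and 19 lower between wild type responses. With 2 libraries a group, small differences were not resolved.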
